A study of Mus musculus with 9 samples.

Results

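Fc receptors and their ITAM adaptors were followed as 8 genes, Fcgr1, Fcgr2b, Fcgr3, Fcer1g, Tyrobp, Trem2, Laptm5 and Syk, in peripheral blood of mouse embryos that carried 2, 1 or 0 copies of the ΔC95 allele of Cbfb. Every probe set that the platform annotation assigned to 1 of these genes alone was taken, whatever its values, which gave 21 of the 45037 probe sets tested, for 8 of 18193 genes. Cbfb encodes the non-DNA-binding subunit of core binding factor, whose DNA-binding partners are RUNX proteins. The study's title asks about the C-terminal end of CBFβ-SMMHC, a fusion of CBFβ with smooth muscle myosin heavy chain. Homozygous (CbfbΔC95/ΔC95), heterozygous (Cbfb+/ΔC95) and wild-type (Cbfb+/+) embryos were the offspring of heterozygous parents, had a mixed C57BL6/129SvEv background and were at E12.5. Blood of 8 to 10 embryos of one genotype was pooled and its total RNA was hybridized to Affymetrix mouse 430 2.0 arrays, 3 for each genotype and 9 in all. The labels neither describe what ΔC95 removes nor tell if arrays of one genotype stem from different pools. A p-value here measures array-to-array spread only, possibly technical, and the small number of arrays limits the precision.

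Fc receptors bind the constant part of antibodies, and the activating ones signal through an immunoreceptor tyrosine-based activation motif (ITAM), a short cytoplasmic stretch with paired tyrosines. Src family kinases phosphorylate those tyrosines, the kinase Syk docks on them, and enzymes and adaptors downstream of Syk start phagocytosis, calcium release and cytokine production. Macrophages, mast cells, neutrophils and natural killer cells use the adaptors Fcer1g (the common Fc receptor gamma chain) and Tyrobp (DAP12) for this purpose, and inhibitory receptors such as Fcgr2b oppose it through an ITIM, a related motif that recruits phosphatases.

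Windows around the annotated gene starts of 5 members that hold a core motif of a hematopoietic transcription factor are shown. Syk, which also has a window with such a motif, is not shown. The windows shown give the sequence context of genes whose transcript levels are compared between genotypes of a RUNX partner. Each window runs from 250 bases before to 50 bases after a start in RefSeq (build GRCm38.p6), is written 5′ to 3′ on the gene's strand, and lies at chr3:96293920-96294219 (minus strand) for Fcgr1, chr1:171059345-171059644 (minus strand) for Fcgr3, chr1:171234300-171234599 (minus strand) for Fcer1g, chr17:48346151-48346450 (plus strand) for Trem2 and chr4:130913066-130913365 (plus strand) for Laptm5. Capitals mark the motif match, which reads TGTGGT in Fcer1g (the RUNX core) and TTCCTC, the reverse complement of the PU.1 core GAGGAA, in the others.
Fcgr1: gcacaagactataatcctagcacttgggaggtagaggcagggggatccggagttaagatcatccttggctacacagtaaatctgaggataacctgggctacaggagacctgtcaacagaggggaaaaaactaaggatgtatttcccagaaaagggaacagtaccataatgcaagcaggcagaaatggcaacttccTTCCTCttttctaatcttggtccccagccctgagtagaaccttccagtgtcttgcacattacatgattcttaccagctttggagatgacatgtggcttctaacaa
Fcgr3: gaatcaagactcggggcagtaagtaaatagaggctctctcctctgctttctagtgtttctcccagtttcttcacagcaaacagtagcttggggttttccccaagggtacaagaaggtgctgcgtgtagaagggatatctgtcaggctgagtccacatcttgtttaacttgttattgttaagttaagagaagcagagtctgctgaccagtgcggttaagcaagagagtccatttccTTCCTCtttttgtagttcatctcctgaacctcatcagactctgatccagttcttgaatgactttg
Fcer1g: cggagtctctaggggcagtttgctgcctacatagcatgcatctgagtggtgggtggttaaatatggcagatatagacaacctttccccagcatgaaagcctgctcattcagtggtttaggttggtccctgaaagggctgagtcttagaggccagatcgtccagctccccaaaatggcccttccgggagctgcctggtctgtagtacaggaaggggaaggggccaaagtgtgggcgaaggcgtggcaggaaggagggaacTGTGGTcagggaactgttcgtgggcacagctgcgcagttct
Trem2: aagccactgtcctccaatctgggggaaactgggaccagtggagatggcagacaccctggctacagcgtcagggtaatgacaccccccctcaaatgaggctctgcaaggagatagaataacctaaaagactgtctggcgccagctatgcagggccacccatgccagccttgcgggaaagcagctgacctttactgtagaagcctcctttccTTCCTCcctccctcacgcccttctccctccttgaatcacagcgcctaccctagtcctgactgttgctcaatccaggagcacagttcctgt
Laptm5: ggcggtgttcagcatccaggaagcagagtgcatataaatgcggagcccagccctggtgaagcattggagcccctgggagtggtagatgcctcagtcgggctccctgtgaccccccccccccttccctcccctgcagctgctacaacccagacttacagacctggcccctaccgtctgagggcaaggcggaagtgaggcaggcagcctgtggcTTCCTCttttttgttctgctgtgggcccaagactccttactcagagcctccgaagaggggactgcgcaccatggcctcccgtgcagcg

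Both strands were searched for TGTGGT as the RUNX core, for GAGGAA as the PU.1 core and for AGATAA as the GATA core, and no window shown holds more than 1 match. Windows were given for 7 of the 8 genes, 9 windows in all, with Tyrobp the gene without one. The PU.1 core was found in windows of Fcgr1, Fcgr3, Trem2, Laptm5 and Syk, and the match began 55, 15, 40, 38 and 9 bases before the start in the windows concerned (6 bases in the second Fcgr3 window). It occurs in 28.3% of all 32851 windows of the same length. The letters TGTGGT were found in Fcer1g alone, against 16.8% of all windows, and AGATAA in none of the 9, against 11.2%. Other spellings of the 3 cores, such as TGCGGT, which the Fcgr3 window holds, were not searched. The Fcgr2b window held none of the 3 spellings searched. A match describes these letters only and is no evidence of binding.

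Blood of homozygous embryos had lower levels of Fcgr3, Tyrobp, Laptm5, Fcgr1 and Fcer1g transcripts than wild-type blood, by 10.5-, 9.23-, 4.44-, 3.32- and 3.15-fold on the brightest probe set of each gene. The means over all probe sets of Laptm5 and of Fcgr1 differed less than their brightest, by −0.52 and −0.87 on the log2 scale. Syk, Trem2 and the brightest Fcgr2b probe set were not called. Counted on the brightest probe set of each gene, 5 of 8 members were lower and 0 higher, against 14.9% lower and 10.7% higher among all 18193 genes. Adjusting p over these 18193 probe sets alone left 5 lower and made 1, Trem2, higher. Over all member probe sets, 9 of 21 were lower and 0 higher, against 11.7% and 8.34% of 45037. The members were chosen with earlier results of these data known, so member counts set beside these shares are description only. Unless stated otherwise, a call is a limma test with a Benjamini-Hochberg adjusted p under 0.05 over all 45037 tested probe sets. The median log2 difference of the 8 brightest probe sets was −1.69, and that of all genes 0.05, while the median of all 21 member probe sets was −0.11. In bulk RNA, fewer cells of a type and less RNA per cell cannot be told apart.

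**Figure D1:**
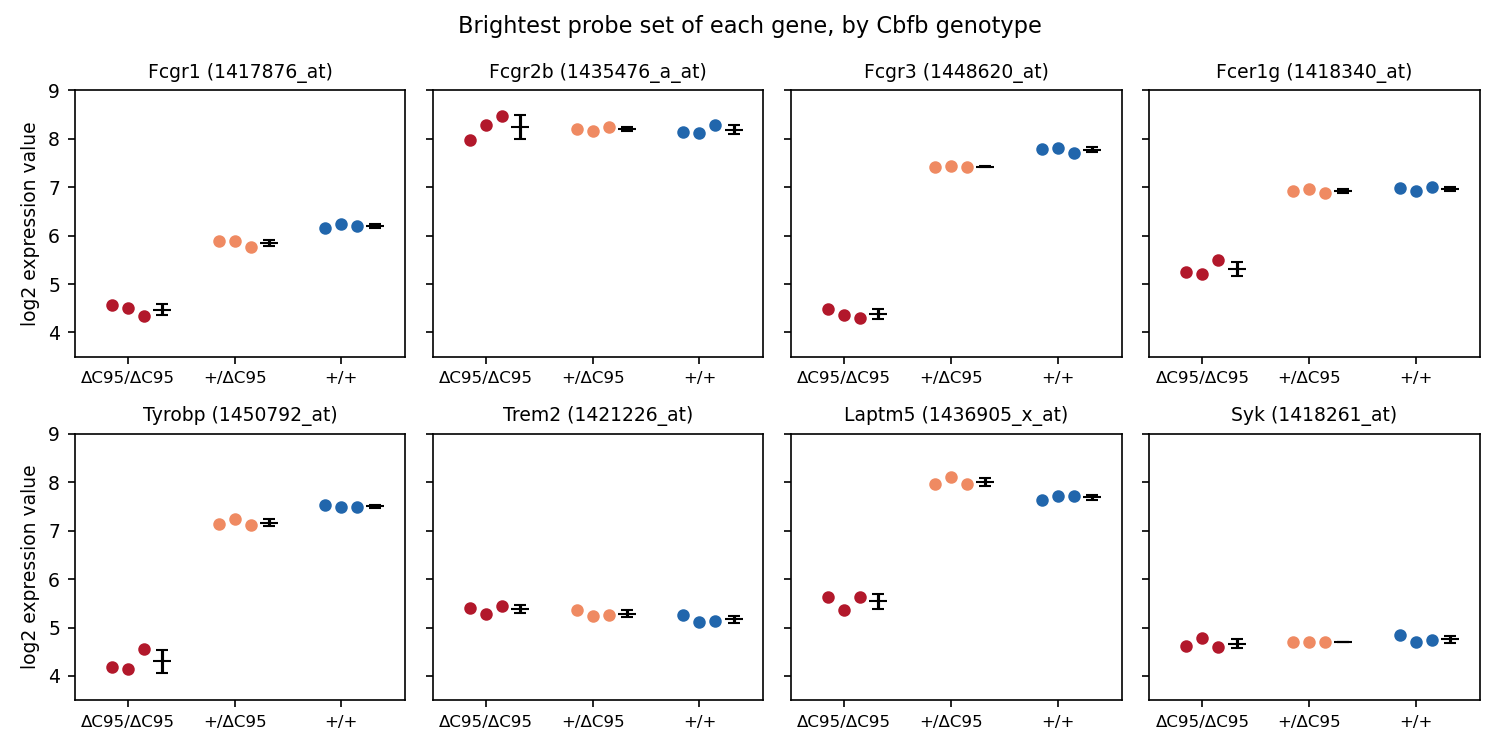
Deposited log2 level of the brightest probe set of each of the 8 genes, on every array. Points are single arrays of homozygous, heterozygous and wild-type blood and the bars beside them are group means with SDs. For Fcgr1, Fcgr3, Fcer1g, Tyrobp and Laptm5 the 3 homozygous arrays lay below the 6 others, while the arrays of Fcgr2b and Syk overlapped between genotypes.

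Several technical and cellular measures moved with genotype. The targeted gene, Cbfb, read 4.93 to 5.25 on homozygous arrays, 5.73 to 5.80 on heterozygous arrays and 5.98 to 6.04 on wild-type arrays. Poly-A spike-ins, bacterial transcripts added before labelling, averaged 11.96 ± 0.02 on the log2 scale in homozygous, 11.26 ± 0.00 in heterozygous and 10.38 ± 0.02 in wild-type samples (SD, n = 3 each). Hybridization spike-ins, which are added after labelling, averaged 10.60 ± 0.07 in homozygous, 10.32 ± 0.04 in heterozygous and 10.32 ± 0.01 in wild-type samples. Setting the poly-A spike-in signals equal would shift the median of all probe sets to −1.54 in homozygous against wild-type blood, so the differences given here are relative to the bulk of the probe sets. Of 12 macrophage markers, 8 were lower in homozygous blood than in the wild type (Csf1r, Adgre1, Cd68, Mrc1, C1qa, C1qb, C1qc and Cd14), and Cx3cr1, Mertk, Timd4 and Cd163 were not called. The summed unlogged signal of all 12 was 331 to 339 in homozygous, 1337 to 1358 in heterozygous and 1660 to 1684 in wild-type samples. Csf1r, the brightest, averaged 6.14, 9.06 and 9.62 on the log2 scale and weighs most in this sum. The mean log2 level of the 12 was 4.46 to 4.58, 5.87 to 5.92 and 5.97 to 6.00. Among other blood cell types, 3 of 7 neutrophil and 2 of 8 mast cell markers were lower in homozygous blood, beside 14.9% of all genes. In that comparison 0 of 6 natural killer cell markers, 0 of 6 B cell markers and 0 of 4 T cell markers were called. Platelet markers, for cells that carry Fcer1g, were lower in 7 of 8. Of 7 erythroid markers 1 was lower, Alas2 by −0.16 (limma adjusted p = 0.0437). The summed unlogged signal of these 7 was 77684 to 78673 in homozygous, 76191 to 77397 in heterozygous and 77235 to 77508 in wild-type samples. The part of these measures in the results below was not tested.

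Among the activating receptors, Fcgr3 (the low-affinity receptor III for IgG) differed most. Its log2 level was 4.48, 4.37 and 4.29 on the homozygous arrays, 7.42, 7.45 and 7.41 on the heterozygous arrays and 7.79, 7.82 and 7.71 on the wild-type arrays. The median of all probe sets on the homozygous arrays was 4.27, 4.29 and 4.29. Homozygous Fcgr3 signal, like that of Tyrobp below, was near this median, and its height over background is unknown. The 3 genotypes did not overlap, and the homozygous arrays stood far below both others. The difference was −3.39 ± 0.06 (SE) between homozygous and wild-type blood, with a limma adjusted p of 3.39e-11. Only 5 of the 45037 probe sets had a more negative difference in this contrast. Against heterozygous blood, homozygous blood was 8.26-fold lower in Fcgr3 (log2 difference −3.05, limma adjusted p = 8.18e-11). Heterozygous blood was 1.27-fold lower than wild type (−0.35, limma adjusted p = 0.00433).

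Fcgr1, the high-affinity receptor I for IgG, had 2 probe sets. The brighter one read 4.57, 4.51 and 4.34 in homozygous samples, 5.88, 5.88 and 5.77 in heterozygous samples and 6.16, 6.24 and 6.21 in wild-type samples. Every array of a genotype with more ΔC95 copies was below every array of a genotype with fewer. Homozygous blood was lower by a log2 difference of −1.73 ± 0.07 (SE) against wild type (limma adjusted p = 1.29e-08) and by 2.59-fold against heterozygous blood (limma adjusted p = 1.79e-07). Heterozygous blood was 1.28-fold lower than wild type (−0.36, limma adjusted p = 0.00663). The second probe set of Fcgr1, 1436625_at, averaged 5.10, 5.11 and 5.11 in homozygous, heterozygous and wild-type samples and was not called (homozygous minus wild type −0.01, limma adjusted p = 0.909). The mean of both probe sets differed by −0.87 between homozygous and wild-type blood and by −0.69 between homozygous and heterozygous blood, and was called lower in both.

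The 5 probe sets of Fcgr2b, the inhibitory receptor for IgG, disagreed. The brightest, 1435476_a_at, read 7.97, 8.29 and 8.47 on homozygous arrays, 8.21, 8.16 and 8.24 on heterozygous arrays and 8.15, 8.13 and 8.29 on wild-type arrays. The genotypes overlapped, and the difference between homozygous and wild-type blood was 0.06 with a 95% interval from −0.17 to 0.29 (limma adjusted p = 0.757). Probe set 1435477_s_at read 2.98, 2.89 and 2.86 in homozygous, 4.62, 4.57 and 4.26 in heterozygous and 5.01, 5.20 and 5.20 in wild-type samples. On it the genotypes were fully apart, with 4.68-fold less signal in homozygous blood than in the wild type (limma adjusted p = 1.75e-08), 2.97-fold less than in heterozygous blood (limma adjusted p = 6.02e-07) and 1.57-fold less in heterozygous blood than in the wild type (limma adjusted p = 0.000939).

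Another Fcgr2b probe set, 1451941_a_at, read 4.41, 4.35 and 4.46 in homozygous, 4.72, 4.68 and 4.75 in heterozygous and 4.94, 4.87 and 4.95 in wild-type samples. It was 1.43-fold lower in homozygous blood than in the wild type (limma adjusted p = 3.24e-05), and its heterozygous difference of −0.20 was not called (limma adjusted p = 0.0519), though it passed when only these 2 genotypes were fitted (limma adjusted p = 0.0422). Probe sets 1455332_x_at and 1447622_at were not called in any contrast, with homozygous minus wild-type differences of −0.11 and −0.10. In the maker's naming, _s_at and _x_at mark probes that can match other transcripts, and the ectodomains of Fcgr2b and Fcgr3 are known to be similar in sequence. Whether such matching plays a part in the disagreement was not tested, because no probe sequences were used. The mean of the 5 probe sets differed by −0.58 between homozygous and wild-type blood and was called lower (limma adjusted p = 2.56e-06). Of the 5 probe sets, 3 carry the same accession in the annotation, and no single direction is given here for Fcgr2b.

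**Figure D2:**
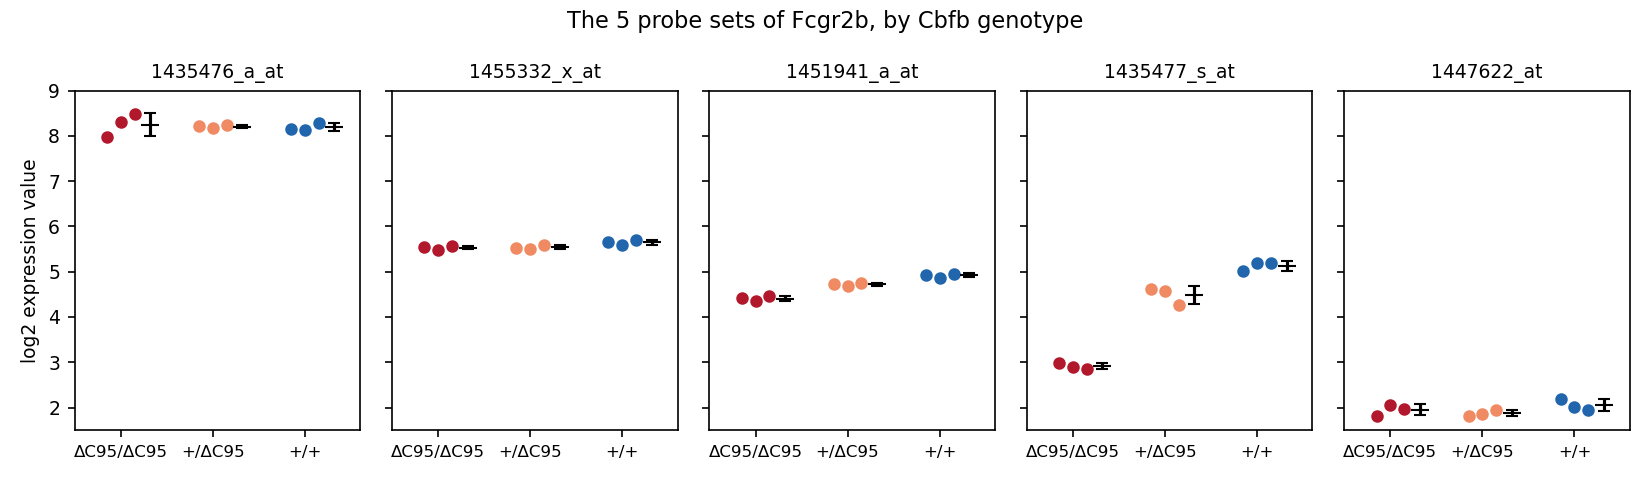
Deposited log2 level of the 5 probe sets of Fcgr2b on every array, in homozygous, heterozygous and wild-type blood. Points are single arrays. Signal of 1435477_s_at was 2.86 to 2.98 on homozygous arrays and 5.01 to 5.20 on wild-type arrays, while that of 1435476_a_at overlapped between the genotypes.

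The adaptor Tyrobp carries a single ITAM and serves receptors of the Trem, Siglec and Ly49 types. It read 4.18, 4.15 and 4.57 in homozygous, 7.15, 7.25 and 7.11 in heterozygous and 7.54, 7.48 and 7.50 in wild-type samples. Homozygous arrays lay below all others, and the third was the highest of its group. The homozygous minus wild-type difference was −3.21 ± 0.10 (SE, limma adjusted p = 1.73e-09), and homozygous blood was 7.30-fold lower than heterozygous blood (limma adjusted p = 4.24e-09). Every heterozygous array was below every wild-type array, yet the difference of −0.34 missed the threshold (limma adjusted p = 0.0514) and passed it when only these 2 genotypes were fitted (limma adjusted p = 0.00618).

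Fcer1g, the gamma chain that activating Fc receptors need at the cell surface, read 5.24, 5.22 and 5.49 in homozygous, 6.92, 6.96 and 6.89 in heterozygous and 6.98, 6.93 and 7.01 in wild-type samples. The homozygous arrays were low and the other genotypes overlapped. Homozygous blood was lower than wild type by −1.66 ± 0.07 (SE) on the log2 scale (limma adjusted p = 2.79e-08) and 3.04-fold lower than heterozygous blood (limma adjusted p = 7.93e-08). Between heterozygous and wild-type blood the difference was −0.05, with a 95% interval from −0.21 to 0.11 (limma adjusted p = 0.791).

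Laptm5, a lysosomal membrane protein of hematopoietic cells that lowers surface levels of antigen receptors, had 5 probe sets. The brightest, 1436905_x_at, read 5.62, 5.37 and 5.63 in homozygous, 7.96, 8.11 and 7.97 in heterozygous and 7.64, 7.72 and 7.72 in wild-type samples. The genotypes did not overlap, and heterozygous samples were the highest. The _x_at suffix of this probe set marks probes that can match other transcripts, and whether they do was not tested. Homozygous blood was lower than wild type by −2.15 ± 0.08 (SE, limma adjusted p = 7.48e-09) and 5.55-fold lower than heterozygous blood (limma adjusted p = 3.48e-09).

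Heterozygous blood was 1.25-fold higher than wild type on that Laptm5 probe set (0.32, limma adjusted p = 0.0239), a direction that turned to −0.56 with equal spike-in signals. The call was lost without heterozygous array 2 (0.27, limma adjusted p = 0.104) and without wild-type array 1, 2 or 3 (0.30, 0.34 and 0.34, limma adjusted p = 0.0959, 0.064 and 0.0605). Probe set 1426025_s_at of Laptm5 was lower in homozygous blood than in the wild type (−0.31, limma adjusted p = 0.00311). So was 1459841_x_at, the dimmest (−0.22, limma adjusted p = 0.0394), and this call was lost without homozygous array 2 (−0.15) or without wild-type array 1, 2 or 3 (−0.22, −0.23 and −0.20). Probe sets 1417721_s_at and 1447742_at were not called, with differences of −0.01 and 0.07. The mean of the 5 Laptm5 probe sets differed by −0.52 between homozygous and wild-type blood and by −0.58 between homozygous and heterozygous blood, and was called lower in both.

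Trem2, a lipid-sensing receptor of macrophages and microglia that signals through Tyrobp, had 2 probe sets and no call in any comparison. Probe set 1421226_at read 5.40, 5.28 and 5.44 in homozygous, 5.37, 5.24 and 5.25 in heterozygous and 5.26, 5.12 and 5.14 in wild-type samples. The homozygous arrays all lay above the wild-type arrays, by 0.20 with a 95% interval from 0.05 to 0.35, but the difference was not called (limma adjusted p = 0.0554). It was called without homozygous array 2 (0.25, limma adjusted p = 0.0311) and without wild-type array 1 (0.24, limma adjusted p = 0.0458), and it turned to −1.38 with equal spike-in signals. The other Trem2 probe set, 1421792_s_at, carries the same accession and differed by 0.11 (limma adjusted p = 0.381).

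Syk, the tyrosine kinase that docks on phosphorylated ITAMs, had 4 probe sets, none of them called in any contrast. The brightest, 1418261_at, read 4.63, 4.78 and 4.60 in homozygous, 4.70 on each of the 3 heterozygous arrays and 4.84, 4.70 and 4.74 in wild-type samples. The genotypes overlapped, and homozygous minus wild type was −0.09 with a 95% interval from −0.23 to 0.05 (limma adjusted p = 0.387). Identical values on at least 3 arrays, as here, occurred in 5 of the 21 member probe sets (23.8%) and in 31.5% of all probe sets. The other Syk probe sets differed by −0.19 (1418262_at), 0.00 (1425797_a_at) and −0.00 (1457239_at).

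**Figure D3:**
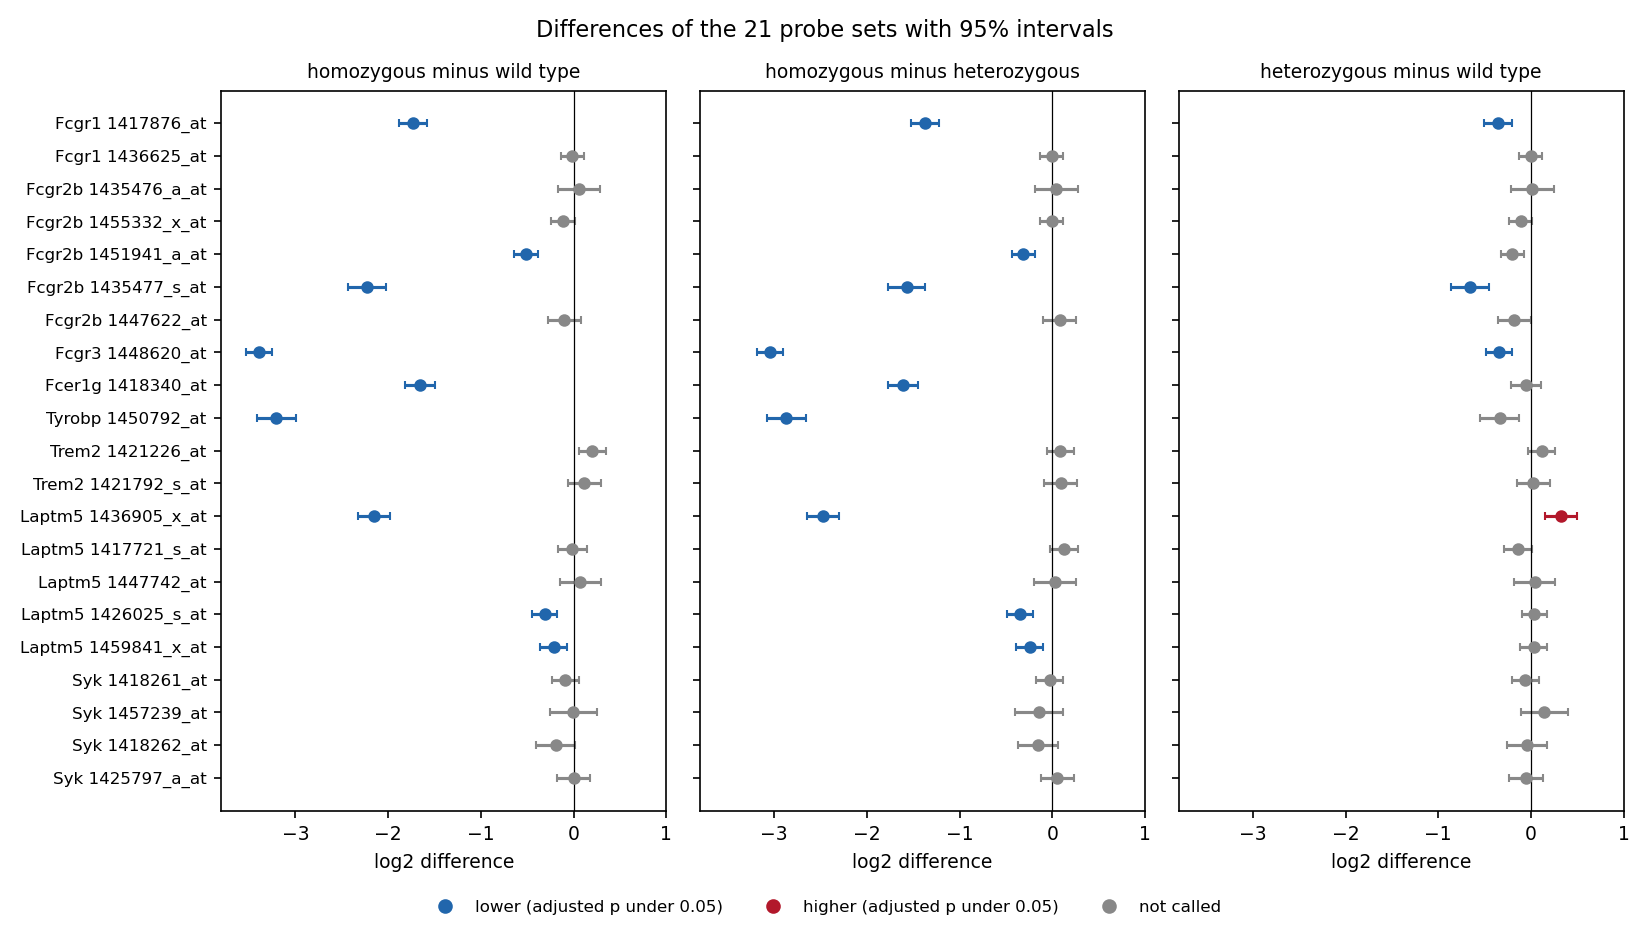
Log2 difference of all 21 member probe sets in homozygous minus wild type, homozygous minus heterozygous and heterozygous minus wild type, with 95% intervals from limma. The largest falls were −3.39 for Fcgr3 and −3.21 for Tyrobp in homozygous against wild-type blood, and the heterozygous differences lay between −0.65 and 0.32. With equal spike-in signals the positive differences turned negative.

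Heterozygous blood had fewer member calls than homozygous blood. Of the 21 probe sets, 3 were lower in heterozygous blood than in the wild type (Fcgr1, Fcgr3 and the Fcgr2b probe set 1435477_s_at) and 1 was higher (Laptm5), against 5.15% and 3.41% of all probe sets. Per gene this was 2 lower and 1 higher of 8, against 7.04% and 4.79%. Of the macrophage markers, 2 of 12 were lower in heterozygous blood (Csf1r by −0.56 and Adgre1 by −0.38), and of the platelet markers 2 of 8 were higher (Pf4 by 0.52 and Vwf by 0.38). Neutrophil markers were lower in 4 of 7 (S100a8 by −1.32, S100a9 by −0.94, Mpo by −0.77 and Prtn3 by −0.52). In the same comparison 1 of 8 mast cell markers was lower (Cpa3 by −0.65) and 1 of 6 B cell markers was higher (Igll1 by 0.49). Of 7 erythroid markers 1 was lower in heterozygous blood (Epor by −0.27). Between homozygous and heterozygous blood 9 of 21 probe sets were lower and 0 higher, against 7.95% and 4.17%, and 5 of 8 genes were lower and 0 higher, against 10.4% and 5.38%. The comparisons of both mutant genotypes with wild type share the wild-type arrays.

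Over the 9 arrays, the level of Fcer1g, Tyrobp, Fcgr3, Fcgr1 and Laptm5 followed the mean of the other 7 members with r = 1.00, 1.00, 0.99, 0.98 and 0.97, while r was 0.40 for Syk, −0.18 for Fcgr2b and −0.68 for Trem2. These points fall in 3 genotype groups, so r describes mostly the spacing of the groups. Among 736 other genes whose range was at least 1 on the log2 scale, those most like the mean of the 8 members were Ctsc (a lysosomal protease), Ifitm2 (an interferon-induced membrane protein) and Mrc1 (the macrophage mannose receptor), with r = 0.999 each. Next came Ms4a6b with r = 0.998, and Mtpn and Nrros with r = 0.996 each. Ctsc averaged 4.53 in homozygous, 7.58 in heterozygous and 7.74 in wild-type samples. Trem2 was most like Dbp (r = 0.89), Syk most like Pggt1b (r = 0.78), and no gene was closer to Fcgr2b than Bid (r = 0.39).

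The wider pathway was followed in 6 lists of other Fc receptors, ITAM proteins, kinases, downstream proteins and inhibitors, with 90 of 97 genes measured alone. In homozygous against wild-type blood 18 were lower and 1 higher, beside 14.9% and 10.7% of all genes. Their median difference was 0.02. In heterozygous against wild-type blood 2 were lower (Skap2 and Ptprc) and 2 higher (Csk and Dok2), beside 7.04% and 4.79% of all genes. In homozygous against heterozygous blood 20 were lower and 1 higher (Lat2, an adaptor of B and mast cells), beside 10.4% and 5.38% of all genes.

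Of 9 other Fc receptors, 2 were lower. Fcrls, an Fc receptor-like scavenger protein of mouse macrophages and microglia, averaged 5.30 ± 0.25 in homozygous, 7.54 ± 0.11 in heterozygous and 7.59 ± 0.03 in wild-type samples (SD, n = 3 each), a homozygous minus wild-type difference of −2.30 (limma adjusted p = 3.29e-08). Fcgrt, the neonatal Fc receptor that recycles IgG, differed by −0.81 (limma adjusted p = 9.41e-05). Fcer1a, the IgE-binding chain of mast cells and basophils, had 0.26 and Trim21, a cytosolic antibody receptor, −0.23, neither of them called.

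Of 11 genes listed as ITAM adaptors and receptors, among which Hcst and Fcer2a carry no ITAM, 2 were lower, beside 14.9% of all genes. Clec1b, the platelet receptor for podoplanin, was lower by −1.66 (limma adjusted p = 8.27e-07) and Clec7a, the beta-glucan receptor of myeloid cells, by −0.36 (limma adjusted p = 0.00802). The B cell receptor chains Cd79b and Cd79a were not called, with −0.25 and 0.18. Of 17 receptors that pair with Tyrobp or Fcer1g or belong to their families, 1 was lower, beside the same 14.9% of all genes. It was Treml1, a platelet protein, with −0.44 (limma adjusted p = 0.000933). Clec4d and Pilrb1 were not called, with −0.21 and 0.19.

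Of 7 kinases of the Src and Syk families and related to them, Fyn was lower (−0.35, limma adjusted p = 0.0178) and Csk, which inhibits Src kinases, was higher (0.30, limma adjusted p = 0.0117). Among all genes 14.9% were lower and 10.7% higher. Csk was also higher in heterozygous blood than in the wild type (0.33, limma adjusted p = 0.0146). Downstream of Syk, 8 of 27 genes were lower. They were the adaptor Fyb (−1.12), the PI3-kinase adaptor Pik3ap1 (−1.04), the small GTPase Rac2 (−0.71), the exchange factor Sos1 (−0.69), Plcg2 (−0.68), Btk (−0.57), Skap2 (−0.53) and Grb2 (−0.40). Their probe sets did not all move together, since another of Sos1 was higher by 0.23, and others of Pik3ap1 and Rac2 were not called (0.08 and 0.03).

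Among 19 ITIM receptors and phosphatases 4 were lower. Ptprc (CD45), the leukocyte phosphatase that activates Src kinases, averaged 2.87 ± 0.20 in homozygous, 4.27 ± 0.12 in heterozygous and 4.96 ± 0.17 in wild-type samples (SD, n = 3 each). Its homozygous minus wild-type difference was −2.08 (limma adjusted p = 8.99e-08) and its heterozygous one −0.69 (limma adjusted p = 0.00197). Sirpa, the inhibitory receptor for CD47, was lower by −0.71, Ptpn11 by −0.44 and Cd300a by −0.38 in homozygous blood. Lair1 (0.25) and Dok3 (0.22) were not called. Another probe set of Ptpn11 was higher by 0.20, and others of Ptprc (0.03), Sirpa (−0.05 and 0.01) and Cd300a (0.00) were not called.

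**Figure D4:**
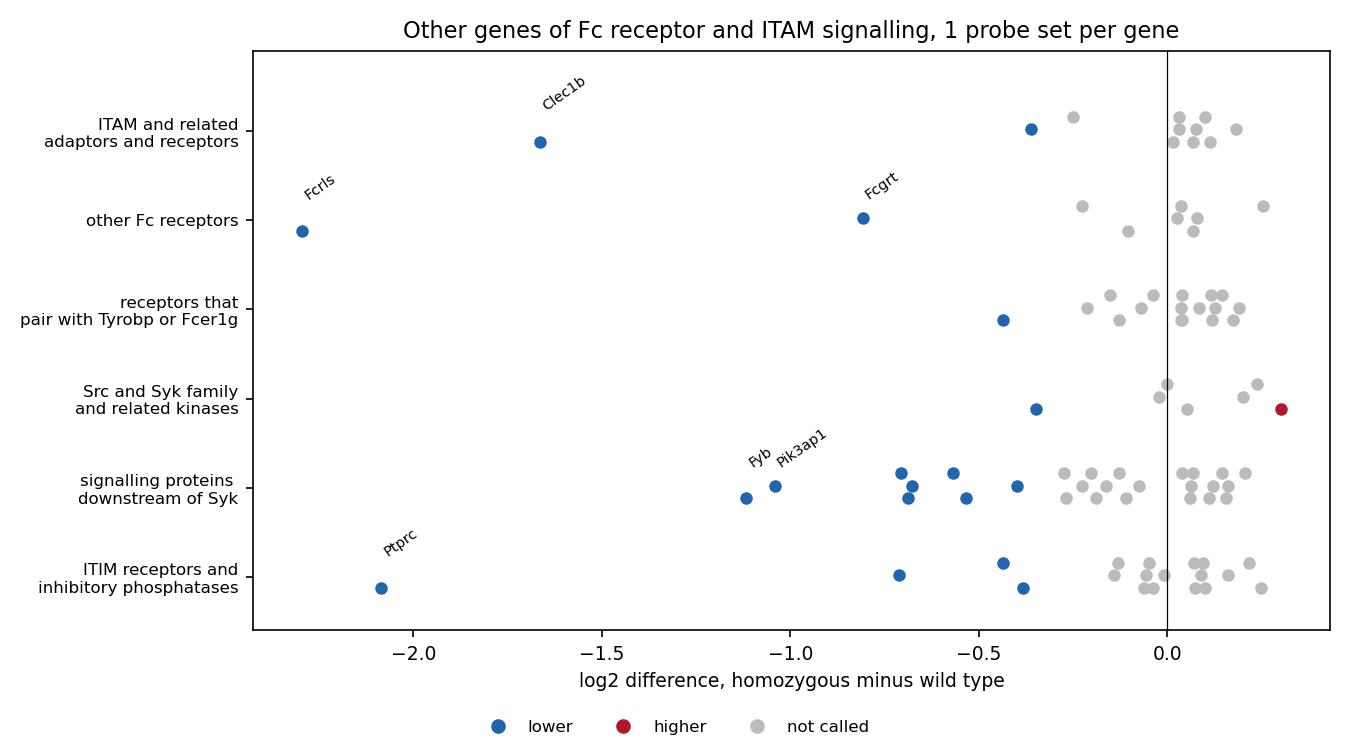
Homozygous minus wild-type log2 difference of the 90 other genes of Fc receptor and ITAM signalling, 1 probe set per gene, in 6 lists. Points are genes, coloured by their call in limma. Most genes lay near 0, and Fcrls (−2.30), Ptprc (−2.08) and Clec1b (−1.66) lay farthest below it. With equal spike-in signals the median of all probe sets becomes −1.54.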

How the data were processed

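Total RNA of pooled embryonic blood was extracted with RNA-STAT and biotin-labelled by a one-cycle method, per the labels' protocols. Per the submitters' processing notes the tools were RMA, Affymetrix Expression Console 1.0 and Partek 6.5, with no role given. The deposited values (45037 probe sets after leaving out 64 controls) span 1.49 to 14.56. The deposited values were read as log2, made by the authors with RMA per the submitters' processing notes, since that method gives log2 and the range fits it. Array equalization of this kind removes any uniform difference in RNA content. Detection calls were not used, so signal over background is unknown.

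Genotype came from sample titles. A model of genotype was fitted to all 9 arrays and all probe sets with limma 3.58.1 (lmFit, eBayes) in R 4.3.3. Tests were 2-sided, with Benjamini-Hochberg adjustment over 45037 probe sets and a threshold of 0.05. The script was tested on simulated arrays. Gene names came from GEO's platform annotation, with 34945 probe sets naming 1 gene, 932 several and 9160 none. Per gene, the probe set brightest on average over all arrays was used. All member probe sets are named, and from each pathway list up to 4 called and 2 uncalled genes. Plcg2, Btk, Skap2, Grb2, Lat2 and other probe sets of listed genes joined the text later, with their values in view. Members and lists were chosen with earlier results of these data known. Listed genes without a probe set of their own were not analysed here. Figures were drawn with matplotlib 3.10.9.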

Additional observations from a re-analysis of the deposited data

How the results depend on the processing

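The falls of Fcgr1, Fcgr3, Fcer1g, Tyrobp and the brightest Laptm5 probe set in homozygous blood kept direction and call against wild type and against heterozygous blood in all settings run that kept the probe set. Equal poly-A spike-in means gave -3.31, -3.24 and -3.73 for Fcgr1, Fcer1g and Laptm5 against wild type. Leaving out 1 array at a time gave 8 to 9 lower and 0 to 1 higher member probe sets in homozygous against wild-type blood, 3 to 3 lower and 0 to 1 higher in heterozygous against wild-type blood, and 8 to 9 lower and 0 to 0 higher in homozygous against heterozygous blood. Same-numbered arrays of different genotypes correlated in their deviations at r = -0.02 to 0.07 (0 of 9 pairs over 0.1), others at -0.06 to 0.03, so the numbers were not taken to pair the samples. The replicate block gave 8 lower and 1 higher (Trem2) of 21 in homozygous against wild-type blood and 8 lower in homozygous against heterozygous blood. In homozygous against wild-type blood, 1 was also higher (Trem2) without the dimmest 40% of probe sets, with quantile normalization and with 1 probe set per gene, which left 5 lower of 8. Without probe sets ending in _x_at, _s_at or _a_at, 4 of the remaining 11 were lower in that comparison and 4 in homozygous against heterozygous blood, where 1 probe set per gene left 5. In heterozygous against wild-type blood, 5 were lower in a fit of these genotypes alone, without the dimmest probe sets, with array weights, with cyclic loess and with equal array medians. In the same comparison, scaling to reference genes gave 9 lower and 0 higher and a 2-fold minimum left 0 and 0, and reference genes gave 3 higher in homozygous against heterozygous blood. The Laptm5 rise was also lost, leaving 0 higher, with the mean of a gene's probe sets and at a threshold of 0.01 (without suffixed probe sets its probe set is not tested, and 0 were higher). Of all probe sets, 9019, 3855 and 5459 were called in the 3 comparisons in this order. A 2-fold minimum left 646, 59 and 247, leaving out suffixed probe sets 5704, 2187 and 3442, 1 probe set per gene 5128, 2482 and 3302, and the mean of a gene's probe sets 5291, 2315 and 3231. A threshold of 0.01 left 2153 and 3057 in the last 2 comparisons, and reference genes gave 11025 and 15983. Reference genes moved the share of higher among called probe sets to 5.70% (39.8% as reported) in heterozygous against wild-type blood and 84.2% (34.4%) in homozygous against heterozygous blood, with medians of -0.15 and 0.15. Equal spike-in means brought the median of all probe sets to -1.54, -0.87 and -0.67, called 45035, 44962 and 44941, and made all 21 members lower and 0 higher in each comparison. Positive differences then turned negative, in homozygous minus wild type Trem2 (-1.38 and -1.47), Syk 1425797_a_at (-1.58), Fcgr2b 1435476_a_at (-1.52) and Laptm5 1447742_at (-1.51). In heterozygous minus wild type they were Trem2 (-0.77 and -0.86), Laptm5 (-0.84, -0.56, -0.84 and -0.85), Fcgr2b 1435476_a_at (-0.87) and Syk 1457239_at (-0.74). In homozygous minus heterozygous they were Laptm5 (-0.57 and -0.67), Trem2 (-0.61 and -0.61), Syk 1425797_a_at (-0.64) and Fcgr2b (-0.66 and -0.62). The mean of the 5 Fcgr2b probe sets gave -0.58, -0.23 and -0.35 in the 3 comparisons, against 0.06, 0.01 and 0.04 on the brightest. That mean was called lower in each comparison (limma adjusted p = 2.56e-06, 0.00654 and 0.000283). With the mean of each gene's probe sets, 6, 4 and 6 of the 8 members were lower and 0 higher. Without detection calls, dim probe sets cannot be told from background.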
